A study of Mus musculus with 2 samples.

Results

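Mir215, Mir194-1, Mir192 and Mir194-2 are 4 miRNA genes that form a pair of paralogous clusters in the mouse, one on chromosome 1 and one on chromosome 19. They were chosen by name, as the rows whose Ensembl identifiers carry these symbols in GENCODE, and they make up 4 of the 1973 miRNA genes counted. All 4 passed the minimum of 10 counts in each library that 314 genes passed. MicroRNA sequencing had been run on the intestine of 2 newborn mice of strain B6NCrl, at postnatal day 0, with 1 library per animal. The animals carry no treatment or altered allele in the labels, both came from the same mother, and they are called pup 2 and pup 1 here. The labels name no segment of the gut, the sex was not collected, and no sequencing batch is given.

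MiR-192, miR-215 and miR-194 are known as miRNAs of the gut epithelium, and miR-192 and miR-194 are abundant in liver and kidney too. A miRNA finds its target mRNAs mainly through its seed, bases 2 to 8 counted from the 5′ end, so miRNAs with one seed are grouped as a family. MiR-192 and miR-215 share a seed, while miR-194 has another and is cut from the same primary transcripts. In human colon cells the miRNAs of both families are known to be induced by p53.

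The mature 5p arms are shown first because they define both families. The seed is in capitals, and the sequences are those of RefSeq on GRCm38.p6, where all 4 genes had an entry.
miR-215-5p: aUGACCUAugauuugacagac
miR-192-5p: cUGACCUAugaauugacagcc
miR-194-5p: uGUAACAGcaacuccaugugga
The arms miR-192-5p and miR-215-5p, each 21 bases long, share the seed UGACCUA and differ at 3 bases. Counted from the 5′ end of miR-192-5p, these are C1A, A12U and C20A, all outside the seed. No other miRNA gene in the RefSeq table has this seed in an annotated mature arm, and none has GUAACAG, the seed of miR-194-5p. The 22 bases of miR-194-5p are identical in Mir194-1 and Mir194-2.

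The 3p arms are shown because they tell the copies apart where the 5p arm of miR-194 does not.
miR-215-3p: uCUGUCAUucuguaggccaau
miR-192-3p: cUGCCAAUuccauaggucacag
miR-194-1-3p: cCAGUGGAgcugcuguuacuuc
miR-194-2-3p: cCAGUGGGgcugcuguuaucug
MiR-194-1-3p and miR-194-2-3p differ at 4 of 22 bases, A8G, C19U, U20C and C22G counted from the 5′ end of miR-194-1-3p, and the first of these lies in the seed. Counts per gene join reads of both arms, so levels of the arms were not analysed here.

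In both clusters the Mir194 hairpin comes first and the hairpin of the miR-192 family follows on the plus strand. On GRCm38, Mir194-1 (ENSMUSG00000065581.1) lies on chromosome 1 from 185313319 to 185313385, and Mir215 (ENSMUSG00000065562.1) follows from 185313581 to 185313692, with 195 bases between them. Both lie inside 2010103J01Rik, a gene of their own strand that GENCODE M21 classes as antisense, where Mir215 overlaps an exon and Mir194-1 lies in an intron of its annotated transcript. Both also lie opposite introns of Iars2, which encodes the mitochondrial isoleucyl-tRNA synthetase on the minus strand. Mir194-2 (ENSMUSG00000065582.1) lies on chromosome 19 from 6264643 to 6264728, and Mir192 (ENSMUSG00000065523.1) from 6264844 to 6264932, with 115 bases between them and no other annotated gene over either. The nearest other miRNA genes are 70276 bases away on chromosome 1 (Mir664) and 81752 bases away on chromosome 19 (Mir6989).

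**Figure D1:**
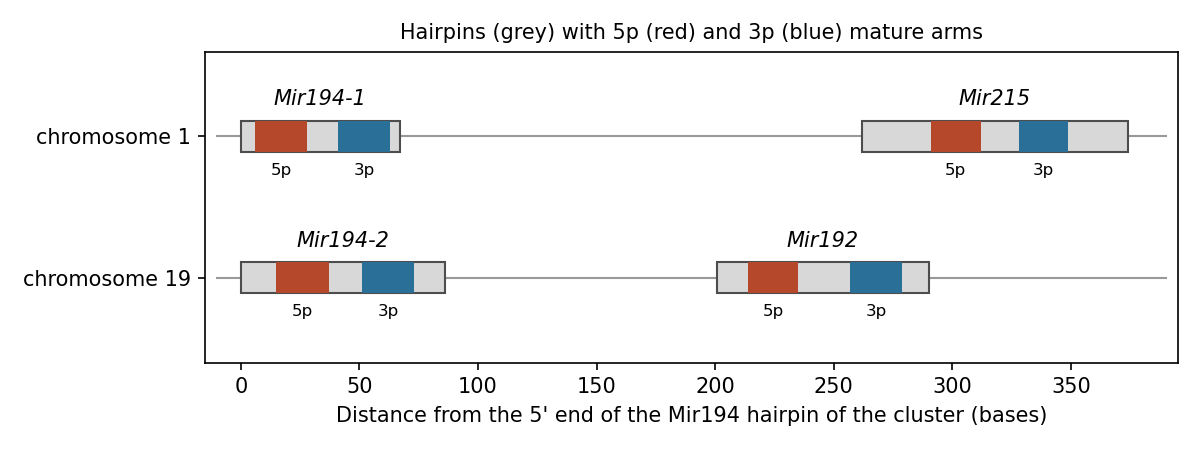
Map of the cluster of chromosome 1 (top) and of chromosome 19 (bottom), with distance in bases from the 5′ end of the Mir194 hairpin on the horizontal axis; grey boxes are hairpins, red boxes 5p arms and blue boxes 3p arms. Both clusters have the same order, and the gap between the hairpins is 195 bases on chromosome 1 and 115 bases on chromosome 19.

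The hairpins are printed whole because the stretch that the Mir194 copies share decides which of their reads could be counted. Capitals mark the mature arms, 5p first.
Mir215: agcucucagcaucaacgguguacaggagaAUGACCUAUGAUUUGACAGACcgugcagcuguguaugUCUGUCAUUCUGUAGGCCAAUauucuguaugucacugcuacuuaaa
Mir192: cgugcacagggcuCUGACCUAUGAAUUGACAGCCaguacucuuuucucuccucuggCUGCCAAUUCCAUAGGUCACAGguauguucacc
Mir194-1: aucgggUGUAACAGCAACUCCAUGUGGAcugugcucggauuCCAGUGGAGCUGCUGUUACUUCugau
Mir194-2: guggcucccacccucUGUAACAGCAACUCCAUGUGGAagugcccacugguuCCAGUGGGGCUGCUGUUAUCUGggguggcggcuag
The longest run that Mir194-1 and Mir194-2 share is exactly miR-194-5p, 22 bases. The base before it is G in Mir194-1 and C in Mir194-2, and the base after it is C in Mir194-1 and A in Mir194-2. Of the stretches of 22 bases in each hairpin, 1 of 46 in Mir194-1 and 1 of 65 in Mir194-2 occurs in another of the 1005 hairpins in the table, and of those of 23 bases none does. Multi-mapped reads, which the deposited counts give to no gene, made up 29.8% of the library of pup 2 and 30.3% of that of pup 1. By sequence, a read that matches only within miR-194-5p fits both copies, so the counts of Mir194-1 and Mir194-2 are lower limits and the split between them is uncertain. Mir215 and Mir192 share no run of 18 bases or more with any hairpin in the table.

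Together the 4 genes took 21.7% ± 2.86 of the counts in miRNA genes (SD over the 2 pups, as for every ± here). Their sum was 1110804 of 4683939 counts in pup 2, a share of 23.7% (95% Clopper-Pearson interval 23.7 to 23.8), and 701834 of 3567658 counts in pup 1, a share of 19.7% (19.6 to 19.7). These intervals hold counting error alone and treat each read as its own molecule, which reads with no molecular identifier need not be. The pups stood further apart than counting error. All 4 genes ranked among the 20 highest of the 1973 by counted reads. Multi-mapped reads are left out of these counts, so miRNAs with identical copies can rank too low. The shares and ranks here hold among the counted reads only. Levels below are CPM, counts per 1000000 counts on the annotated strand of miRNA genes, and they were not scaled by hairpin length because the arms are all 21 or 22 bases long. Levels of different miRNAs also carry any bias of small RNA capture, which was not measured here.

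Mir215, the miR-192 family member of chromosome 1, had by far the most counted reads of the 4. It had 170988 CPM in pup 2 and 138090 CPM in pup 1. By counted reads it was the highest of all miRNA genes in pup 2 and the second highest in pup 1. Its mean of 154539 ± 23262 CPM came next below Mir143, known from smooth muscle, which had 145700 CPM in pup 2 and 176506 CPM in pup 1. The order of this pair differed between the pups and their means lay closer than the SD of either. The gene ranked below, endothelial Mir126a at 52213 ± 3424 CPM, was well under Mir215 in both pups.

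Mir192, the paralog of chromosome 19 with the same seed, had 28960 CPM in pup 2 and 28827 CPM in pup 1. These are nearly equal on the CPM scale, where its coefficient of variation of 0.325% ranked 305 of 314 genes from the highest and the median gene had 8.83%. That depended on the scaling: with TMM library sizes, an alternative chosen after seeing the data, it was 2.42% at place 255, with a median of 8.89%. It ranked 7 by its mean of 28894 ± 94.0 CPM. It was below Mir21a (34700 ± 2018 CPM), a miRNA of many tissues, in both pups, and it changed places between the pups with Mir200b (27514 ± 2056 CPM), an epithelial miRNA.

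Mir194-1, which lies beside Mir215, had 24672 CPM in pup 2 and 19369 CPM in pup 1. Its mean of 22021 ± 3749 CPM ranked 13, next to epithelial Mir200c at 22264 ± 1563 CPM, from which it did not differ beyond the spread, and above Mir22 at 19841 ± 667 CPM, from which it differed by less than its own SD. Mir194-2, which lies beside Mir192, had 12532 CPM in pup 2 and 10435 CPM in pup 1, with a mean of 11483 ± 1483 CPM at rank 20. Its neighbours Mir203 (11510 ± 597 CPM), a miRNA of epithelia, and Mir375 (11291 ± 86.5 CPM), a miRNA of enteroendocrine cells, lay within its spread. Both Mir194 genes were higher in pup 2.

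**Figure D2:**
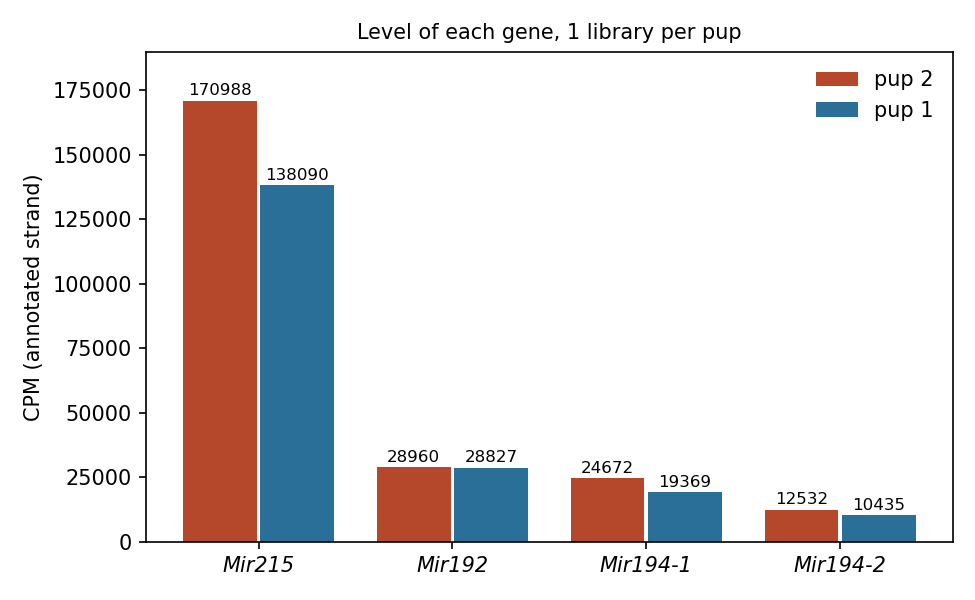
Level of each of the 4 genes in CPM on the vertical axis, with 1 bar per library, pup 2 in red and pup 1 in blue, ordered by mean. Mir215 stands at 170988 CPM in pup 2 and 138090 CPM in pup 1, and no bar of the others exceeds the 28960 CPM of Mir192 in pup 2.

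By counted reads, the order Mir215, Mir192, Mir194-1, Mir194-2 held in both pups, but the places of the Mir194 genes in it rest on counts that are lower limits. Mir192 exceeded Mir194-1 by 4288 CPM in pup 2 and by 9458 CPM in pup 1, against an SD of 3749 CPM for Mir194-1, so these neighbours were the closest in mean. Mir194-1 exceeded Mir194-2 by 12140 CPM in pup 2 and 8935 CPM in pup 1, beyond the spread of either. Reads on the strand opposite the 4 genes numbered 3 in pup 2 and 2 in pup 1 in all, at or under the 3 counts that a count of 0 allows.

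The cluster of chromosome 1 held most of the counts. It took 19.6% of counts in miRNA genes in pup 2 and 15.7% in pup 1, a mean of 17.7% ± 2.70, and the cluster of chromosome 19 took 4.15% in pup 2 and 3.93% in pup 1, a mean of 4.04% ± 0.158. Within the sum of the 4 genes, chromosome 1 made 82.5% in pup 2 and 80.0% in pup 1. The count ratio of the clusters, chromosome 1 over chromosome 19, was 4.72 in pup 2 and 4.01 in pup 1, or 2.12 ± 0.17 on the log2 scale. Each cluster holds a Mir194 gene whose shared reads are lost, so both cluster counts are lower limits. The ± of their ratio does not hold that uncertainty. By family, Mir215 and Mir192 together took 18.3% ± 2.34 of counts in miRNA genes, and Mir194-1 and Mir194-2 together 3.35% ± 0.523, the last a lower limit for the reason above.

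Ratios within a library do not depend on how the libraries are scaled to each other. With 2 animals no permutation test of them could fall below 0.05, so they are given as values. Mir215 over Mir192, the seed-sharing paralogs, was 5.90 in pup 2 and 4.79 in pup 1, a mean log2 ratio of 2.41 ± 0.21. Mir194-1 over Mir194-2 was 1.97 in pup 2 and 1.86 in pup 1 (log2 0.93 ± 0.06). The counted reads were more for the chromosome 1 copy of both pairs in both pups, but for the Mir194 copies the reads they share are lost and which copy made more miR-194 cannot be told.

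Within each cluster more reads were counted for the miR-192 family member than for its Mir194 neighbour. Mir215 over Mir194-1 was 6.93 in pup 2 and 7.13 in pup 1 (log2 2.81 ± 0.03), while Mir192 over Mir194-2 was 2.31 in pup 2 and 2.76 in pup 1 (log2 1.34 ± 0.18). Since reads shared by the Mir194 copies are lost, both ratios are upper limits and do not show which neighbour was more abundant. Across the clusters, Mir215 over Mir194-2 was 13.6 in pup 2 and 13.2 in pup 1, and Mir192 over Mir194-1 was 1.17 in pup 2 and 1.49 in pup 1.

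Of these 6 ratios, the 3 that hold Mir192 differed most between the pups. On the log2 scale, pup 2 minus pup 1, Mir215 over Mir192 differed by 0.30 (95% interval 0.29 to 0.31 from Poisson counting error), Mir192 over Mir194-2 by -0.26 (-0.28 to -0.24) and Mir192 over Mir194-1 by -0.34 (-0.36 to -0.32). The others differed by 0.08 (Mir194-1 over Mir194-2), -0.04 (Mir215 over Mir194-1) and 0.04 (Mir215 over Mir194-2). For comparison, the ratios of all 3003 pairs of the other 78 genes with at least 1000 CPM differed between the pups by a median of 0.19 in size. The 6 ratios share genes and are not independent of each other. Those that hold a Mir194 gene compare counted reads only, without the reads that fit both copies.

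**Figure D3:**
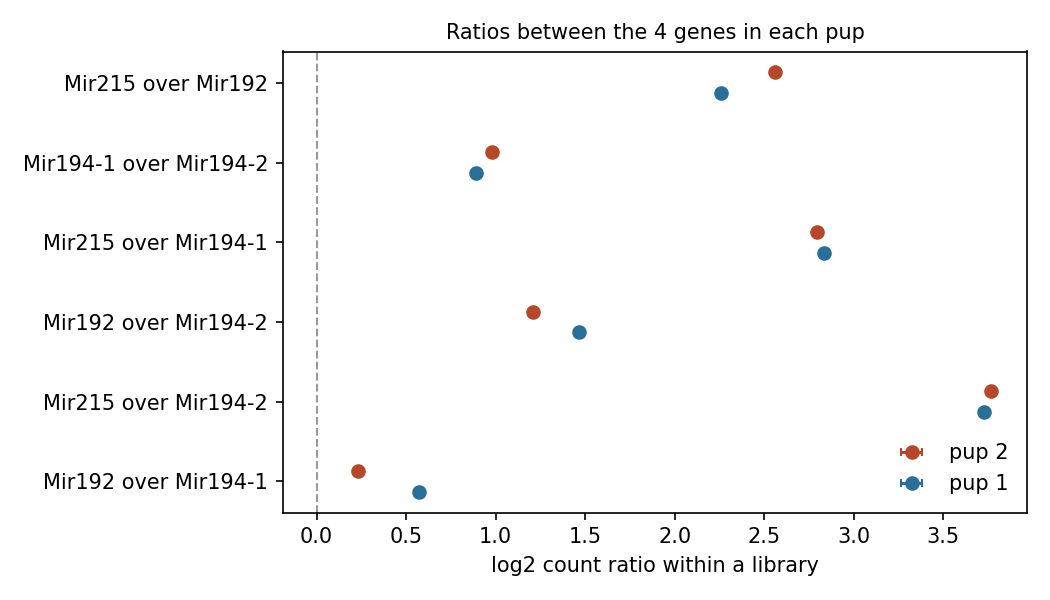
Log2 count ratio within a library for the 6 pairs of the 4 genes, with pup 2 in red above pup 1 in blue; error bars, mostly smaller than the points, are exact binomial 95% intervals of counting error. The pups lie close together for pairs without Mir192, for example at 2.79 and 2.83 for Mir215 over Mir194-1 in pup 2 and pup 1, and further apart for the 3 pairs with it.

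Between the libraries, Mir215, Mir194-1 and Mir194-2 were higher in pup 2 by similar amounts, and Mir192 by little. For the Mir194 genes this holds for the counted reads only. Reads that fit both copies are left out, so the difference of miR-194 itself was not measured. Each gene was tested with an exact binomial test of its counts at the ratio of TMM library sizes, with Benjamini-Hochberg adjustment over the 314 genes. Such a test compares the libraries of 2 animals, not conditions, and has no replicate of either. Of 314 genes, 41.1% were called in either direction and 21.3% were called higher in pup 2. With a minimum of 100 counts, 126 of 227 genes were called, 69 of them higher in pup 2. As the test holds counting error alone, genes with many counts are called at small differences, such as Mirlet7g at a log2 ratio of -0.014. All 4 genes were called higher in pup 2. They are among the highest in counts, so the share over all genes is no like comparison for their calls.

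Mir215 had 800898 counts in pup 2 and 492658 in pup 1, a log2 ratio, pup 2 over pup 1, of 0.35 (95% interval 0.35 to 0.36), or 1.28-fold. Mir194-1 had 115561 counts in pup 2 and 69103 in pup 1, a log2 ratio of 0.39 (0.38 to 0.41), or 1.31-fold. For both, the adjusted p of the exact binomial test was smaller than double precision can hold. Mir194-2 had 58697 counts in pup 2 and 37227 in pup 1, a log2 ratio of 0.31 (0.29 to 0.33; adjusted p = 6.60e-228, exact binomial test).

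Mir192 had 135648 counts in pup 2 and 102846 in pup 1, a log2 ratio of 0.05 (0.04 to 0.06; adjusted p = 7.74e-16, exact binomial test). With total-count scaling its log2 ratio was 0.0066 and the call was lost (adjusted p = 0.426), while the other 3 genes kept theirs; 40.4% of the 314 genes were then called, and 16.9% called higher in pup 2. The 4 genes had a median log2 ratio of 0.33, against 0.0022 over all genes tested. By log2 ratio from the highest of 314, Mir194-1 stood at place 27, Mir215 at 35, Mir194-2 at 43 and Mir192 at 128.

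**Figure D4:**
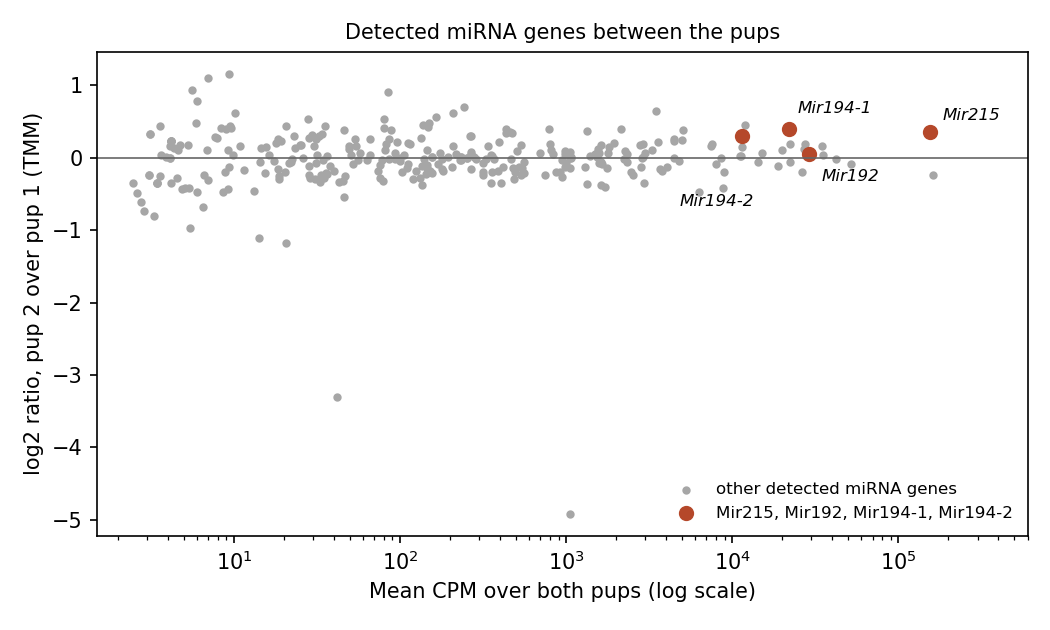
Log2 ratio, pup 2 over pup 1 after TMM scaling, on the vertical axis against mean CPM on a log axis for 314 detected miRNA genes, with the 4 genes in red. Mir215, Mir194-1 and Mir194-2 lie between 0.31 and 0.39 and Mir192 at 0.05, next to the zero line.

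**Figure D5:**
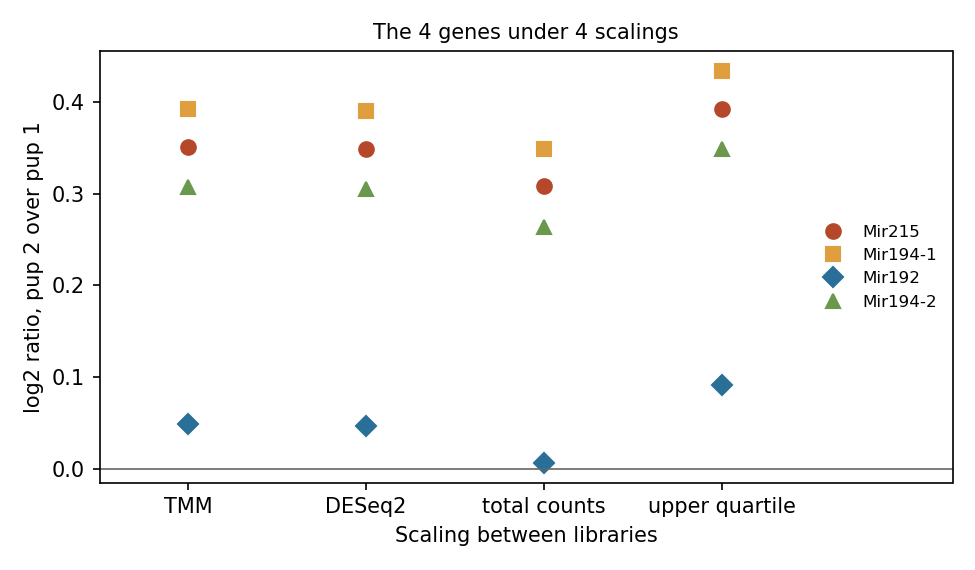
Log2 ratio, pup 2 over pup 1, of the 4 genes under 4 ways of scaling the libraries. All 16 values are above 0; Mir192 is the lowest under each scaling, at 0.0066 with total counts and 0.09 with the upper quartile.

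The genes nearest in log2 ratio were partly the same ones for Mir215, Mir194-1 and Mir194-2 and different ones for Mir192. Over the 78 other genes of at least 1000 CPM and 2 libraries, Mir96, Mir30a and Mir425 were the closest to both Mir215 and Mir194-1, for instance Mir30a with a log2 ratio of 0.39 against 0.39 for Mir194-1. Mir20a, Mir96 and Mir141 were the closest to Mir194-2, from 0.24 to 0.37. Mir140, Mir484 and Mir130b were the closest to Mir192, from 0.05 to 0.06. With 2 libraries this likeness rests on a single difference per gene.

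The other miRNAs of gut epithelium that were listed were higher in pup 2 too with TMM scaling, by less than the 3 genes above. The list of Mir200a, Mir200b, Mir200c, Mir141, Mir429, Mir203, Mir31 and Mir375 summed to 126761 CPM in pup 2 and 119599 CPM in pup 1. All 8 were called higher in pup 2, against 21.3% of all 314 genes, with log2 ratios from 0.03 (Mir375) to 0.24 (Mir141) and a median of 0.17. These are highly counted genes, which the test calls at small differences. Mir205, an epithelial miRNA outside the list, was called lower in pup 2 (log2 ratio -0.12). With total-count scaling 6 of 8 were called higher, against 16.9% of all genes, and Mir375 and Mir429 fell below 0. The sum of the 4 genes was 1.87 times that of the 8 in pup 2 and 1.64 times in pup 1, so their sum differed more between the pups than that of the list. Mir215 made up 72.1% of the sum of the 4 in pup 2 and 70.2% in pup 1. Mir192, with a log2 ratio of 0.05, differed less than the median of the list.

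Of the smooth muscle and endothelial markers, Mir143 and Mir126a were lower in pup 2. Mir143, which makes up nearly all of the smooth muscle list of 3 genes, was called lower in pup 2 (log2 ratio -0.23), while Mir145a was not called (0.0040) and Mir145b had 2 counts in each pup. That list took 15.0% of counts in pup 2 and 18.1% in pup 1. Endothelial Mir126a was called lower in pup 2 as well (-0.09), with 4.98% of counts in pup 2 and 5.46% in pup 1. Bulk tissue does not show which cells held a miRNA. In it, fewer cells of a type and less RNA per cell cannot be told apart, and the part of these shifts in the differences of the 4 genes was not tested. Outside these lists, Mir196b and Mir196a-2 were called lower in pup 2 by far more. Mir196b had 310 counts in pup 2 and 7337 in pup 1 (log2 ratio -4.91). Mir196a-2 had 35 counts in pup 2 and 272 in pup 1 (-3.31). Whether both libraries hold the same stretch of gut cannot be told from the labels and was not tested.

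Liver lies close to the gut and is rich in miR-192 and miR-194, and its marker Mir122 ranked 240 by mean CPM. It had 58 counts (12.4 CPM) in pup 2 and 103 counts (28.9 CPM) in pup 1, and the 4 genes summed to 19152 times its counts in pup 2 and 6814 times in pup 1. Mir122 was called lower in pup 2 (log2 ratio -1.18). The part of liver in the levels of the 4 genes or in their differences was not tested. The other lists took little, but some of their markers matched no counted gene by symbol and are not in the sums. These were Mir142 (leukocytes), Mir9-1 (neurons) and Mir1a-2 (striated muscle), and Mir126b of the endothelial list above. The neuron list took 0.104% of counts in pup 2 and 0.107% in pup 1, nearly all of it Mir137, while Mir124a-1, Mir124a-2, Mir124a-3 and Mir9-2 had 0 counts in both pups. The leukocyte list took 0.0519% in pup 2 and 0.0473% in pup 1, and 1 of its 3 genes, Mir223, was called higher in pup 2 (log2 ratio 0.22). The erythroid list took 0.0148% in pup 2 and 0.0101% in pup 1, with Mir451a called higher in pup 2 (log2 ratio 0.91) and Mir144 not called (-0.12). The striated muscle list took 0.0123% in pup 2 and 0.0110% in pup 1, with Mir1a-1, Mir133a-1 and Mir133a-2 at 0 and none of its genes called. The list of pancreatic acinar cells had 5 counts in pup 2 and 2 in pup 1. A count of 0 is no sign of absence for genes with identical copies, whose reads map to several places.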

How the data were processed

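MicroRNA sequencing libraries of 2 pups formed 1 group, with replicate numbers from the labels. The authors deposited raw, unnormalized counts of reads for each miRNA gene of GENCODE M4 on mm10, per the accompanying text; the aligner and counting program are not given in the sources used here. From their sums, the 3 columns hold counts on either, the annotated and the opposite strand. Lines that name no gene stayed out of library sizes and tests: multi-mapped reads were 29.8% of reads in pup 2 and 30.3% in pup 1. The depth was 8373497 reads for pup 2, 55.9% of them on the annotated strand of miRNA genes, and 6375694 reads for pup 1, with 56.0% there; 3 counts, the most that a count of 0 allows, are 0.640 CPM in pup 2 and 0.841 CPM in pup 1.

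Symbols and coordinates came from GENCODE M21 (GRCm38) for 1894 of 1973 identifiers; the other 79 held 0 counts. Sequences came from RefSeq, GRCm38.p6. Genes with at least 10 counts in each library were tested with 2-sided exact binomial tests (SciPy 1.17.1) at the ratio of TMM library sizes (edgeR 4.0.16), with Benjamini-Hochberg adjustment over 314 genes and a threshold of 0.05. The libraries leave no residual degrees of freedom for edgeR's quasi-likelihood test. On simulated counts of 314 genes with counting noise only, 88% of 100 genes changed 2-fold and 56% of 100 genes changed 1.2-fold were called with the right direction, and 0 of 114 unchanged genes.

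Named genes were the 4 genes, their neighbours by mean CPM, the 3 genes of at least 1000 CPM closest to each in log2 ratio, the list of other epithelial miRNAs and the markers of other cell types. The genes, lists and tests were chosen with earlier results of these data known. Alternatives were DESeq2 1.42.0 size factors, total-count and upper-quartile scaling, other count minimums, counts on either strand, other denominators and each pup alone.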

Additional observations from a re-analysis of the deposited data

How the results depend on the processing

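Between the libraries, the log2 ratios of Mir215, Mir194-1 and Mir194-2 kept their direction and call under 3 other scalings, counts on either strand and count minimums of 1 and 100, and Mir192 lost its call only with total counts (log2 ratio 0.0066, adjusted p = 0.426), where all 314 log2 ratios shift down by 0.04. Called genes numbered 120 to 136 under these settings, against 129. Of the calls, 51.9% were higher in pup 2 with TMM, 41.7% with total counts and 64.6% with the upper quartile. Over all reads as the denominator, Mir215 averaged 86459 per 1000000, Mir194-1 12320, Mir192 16165 and Mir194-2 6424, and the 4 together 12.1%. Without Mir143 in the denominator, they averaged 183919, 26200, 34453 and 13670 CPM, and together 25.8%. On either strand Mir192 averaged 27920 CPM, more than its small SD away. These shifts follow from the denominators. In single pups the share of the 4 ranged from 19.7% to 23.7%, Mir215 from 138090 to 170988 CPM, Mir194-1 from 19369 to 24672, Mir192 from 28827 to 28960 and Mir194-2 from 10435 to 12532. The log2 ratio of the clusters ranged from 2.00 to 2.24 in single pups and was 2.41 from Mir215 over Mir192 alone. The log2 ratios ranged from 2.26 to 2.56 for Mir215 over Mir192, 0.89 to 0.98 for Mir194-1 over Mir194-2, 2.79 to 2.83 for Mir215 over Mir194-1, 1.21 to 1.47 for Mir192 over Mir194-2, 3.73 to 3.77 for Mir215 over Mir194-2 and 0.23 to 0.57 for Mir192 over Mir194-1. The test between pups could not be run with a pup left out. No paired analysis was possible because the series has 1 group.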
